A study of Mus musculus with 9 samples.

Results

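The Nodal and activin pathway was followed through 10 genes: the ligands Nodal and Gdf3, the antagonists Lefty1 and Lefty2, the co-receptor gene Tdgf1, the receptor genes Acvr1b, Acvr2a and Acvr2b, and the signal carriers Smad2 and Smad3. They were picked by name, and the rows of the count table whose Ensembl identifiers map to these symbols were taken. That gave 10 genes of the 52550 in the table, and all 10 had enough reads to be tested. The libraries came from mouse V6.5 embryonic stem cells (ESCs), a hybrid line. The groups were 5 libraries labelled as lacking KLF2 and KLF4 (DKO) and 4 labelled wild type (WT). Both groups were cultured in medium containing 15% FBS with Lif 2i, meaning LIF plus a GSK inhibitor and a MEK inhibitor. The labels name no clone, no deleted exon and no separate cultures, so p-values measure the spread between these libraries, which may be technical.

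Nodal and activins are secreted relatives of TGF-beta. They bind a complex of type II receptors (the products of Acvr2a and Acvr2b) and the type I receptor ALK4 (the product of Acvr1b), and Nodal and GDF3 also need the co-receptor CRIPTO, the product of Tdgf1. The receptors phosphorylate SMAD2 and SMAD3, which enter the nucleus with SMAD4 and act with partners such as FOXH1. Lefty1 and Lefty2 encode secreted antagonists that are themselves targets of the pathway, so that their transcripts are often used as a readout of it. In mouse ESCs the pathway is active through ligands the cells make and takes part in the passage out of the naive state and in the choice of mesendoderm.

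QuantSeq reads mark the 3' ends of transcripts with a poly(A) tail. Counts are therefore compared below for the same gene between libraries and not between genes. Totals were 6035642 to 6617834 counts in the DKO libraries and 6557408 to 7098530 in the WT libraries. Klf2 had 3750 to 4044 counts in the libraries labelled DKO, against 3042 to 3297 in WT, and Klf4 had 9385 to 10778 counts, against 5085 to 6183 in WT. These counts show no loss of either transcript, but reads at a 3' end outside a deleted part cannot check the knockout label. DKO below therefore means the libraries labelled DKO. The DKO libraries were spread along the second principal component, which held 5.87% of the variance. DKO 3 lay at one end (19.1), DKO 4 and DKO 5 at the other (-10.8 and -12.0), and DKO 1 and DKO 2 between (4.91 and 1.33). The mitochondrial share of counts was 1.77% to 2.41% in DKO, highest in DKO 4 (2.30%) and DKO 5 (2.41%), and 1.30% to 1.54% in WT. All 8 markers of ESCs were detected in both groups, with summed levels of 3480 to 3670 CPM (counts scaled to a common library size) in DKO and 2550 to 2660 CPM in WT. The markers did not all go the same way in the test described below. Nanog, Sox2, Esrrb, Tfcp2l1, Dppa5a and Utf1 passed as higher in DKO. Zfp42 passed as lower, at 269 to 336 CPM in DKO and 317 to 347 CPM in WT. Pou5f1, the gene of OCT4, did not pass, at 18.8 to 26.2 CPM in DKO and 23.1 to 24.3 CPM in WT. The 8 fibroblast markers, which feeder cells would bring, summed to 1.47 to 3.75 CPM in DKO and 1.17 to 3.40 CPM in WT, with Lum at 0 in all libraries. The 7 primitive endoderm markers summed to 4.58 to 6.11 CPM in DKO and 4.69 to 7.90 CPM in WT. Within that sum, Sox7 was higher (2.29 to 3.60 CPM in DKO, 0 to 0.298 CPM in WT) and Dab2 lower (0.156 to 0.673 CPM in DKO, 2.20 to 5.22 CPM in WT), both singled out after their values were seen.

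The promoters of 3 of the genes are shown, because Tdgf1 fell, Acvr1b rose and Nodal passed in neither direction, and because KLF factors bind GC-rich boxes. Each line gives the 250 bases before the RefSeq transcription start on GRCm38.p6, 5' to 3' on the gene's strand. Capitals mark GGGNGNGG on either strand, a form of the box that KLF and SP factors bind. The Tdgf1 window is chr9:110946159-110946408 on the minus strand. The Acvr1b window is chr15:101173822-101174071 and the Nodal window is chr10:61417722-61417971, both on the plus strand.
Tdgf1: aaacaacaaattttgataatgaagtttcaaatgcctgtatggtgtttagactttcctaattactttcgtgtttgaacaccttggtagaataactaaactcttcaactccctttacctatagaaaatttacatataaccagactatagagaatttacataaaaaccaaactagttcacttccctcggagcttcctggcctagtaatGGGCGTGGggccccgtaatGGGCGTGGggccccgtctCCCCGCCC
Acvr1b: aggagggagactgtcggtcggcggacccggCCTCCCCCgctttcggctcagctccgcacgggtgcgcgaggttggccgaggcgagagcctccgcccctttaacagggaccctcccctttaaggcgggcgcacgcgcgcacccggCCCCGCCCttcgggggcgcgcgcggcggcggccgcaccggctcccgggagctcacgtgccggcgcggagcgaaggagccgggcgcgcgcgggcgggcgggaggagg
Nodal: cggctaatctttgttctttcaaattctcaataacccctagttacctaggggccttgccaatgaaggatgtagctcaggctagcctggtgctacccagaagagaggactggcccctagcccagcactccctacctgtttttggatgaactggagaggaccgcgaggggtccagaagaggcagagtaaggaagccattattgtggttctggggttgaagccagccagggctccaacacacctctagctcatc

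The Tdgf1 window held 3 matches to GGGNGNGG, at -45, -26 and -8 from the start. Those at -45 and -26 lie in a stretch of 19 bases that occurs as 2 exact copies directly after each other. An exact repeat of at least 19 bases occurred in 1.23% of the 32851 promoters of the table, and 3 or more GGGNGNGG matches in 16.7%. The Acvr1b window held 2 matches, at -220 and -106, and the Nodal window held none. At least 1 match was present in 45.9% of all promoters, and in 5 of the 6 members with an entry (Tdgf1, Acvr1b, Acvr2a, Acvr2b and Smad3). Smad3 held 3 matches, as Tdgf1 did, and Acvr2b held 9, several of which overlap each other. The SMAD element CAGAC, found in 42.2% of promoters, matched in Tdgf1 at -113, in Acvr2a at -188 and in Acvr2b at -233. GTCTAGAC, TGTGGATT (a FOXH1 motif) and AACCNGTT (a grainyhead motif) matched in none of the 6, against 0.167%, 0.718% and 1.79% of all promoters. All motifs were searched on both strands, and no match of one motif overlapped a match of another. GC content was 42.0% for Tdgf1, 53.2% for Nodal and 78.8% for Acvr1b, against a median of 52.4%. It was 82.0% for Acvr2a, 72.8% for Acvr2b and 69.2% for Smad3. The shares over all promoters were not matched for GC content, so they are no measure of an excess of GGGNGNGG in these windows. Lefty1, Lefty2, Gdf3 and Smad2 had no entry.

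The co-receptor transcript and one antagonist transcript were lower in DKO, and a ligand and 2 receptor transcripts were higher by smaller amounts. Tdgf1 fell to 0.565 of its WT level and Lefty2 to 0.344. Gdf3 rose 1.27-fold, Acvr1b 1.33-fold and Acvr2b 1.17-fold. Nodal, Lefty1, Acvr2a, Smad2 and Smad3 did not pass the test. Each log2 fold change sets DKO against WT, positive where DKO is higher, and carries a standard error (SE) from edgeR's quasi-likelihood test; a gene was called at an adjusted p under 0.05 over all 11893 genes tested. Of the 10 genes 3 rose and 2 fell. Over all genes tested 23.8% were called higher and 24.0% lower, together 47.8%, so a count of 5 in 10 is near the background and says nothing about the pathway as a group. The median log2 fold change of the 10 was 0.21, beside 0.01 over all genes tested. In bulk RNA, fewer cells that express a gene and less RNA per cell cannot be told apart, which holds for every gene below.

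**Figure D1:**
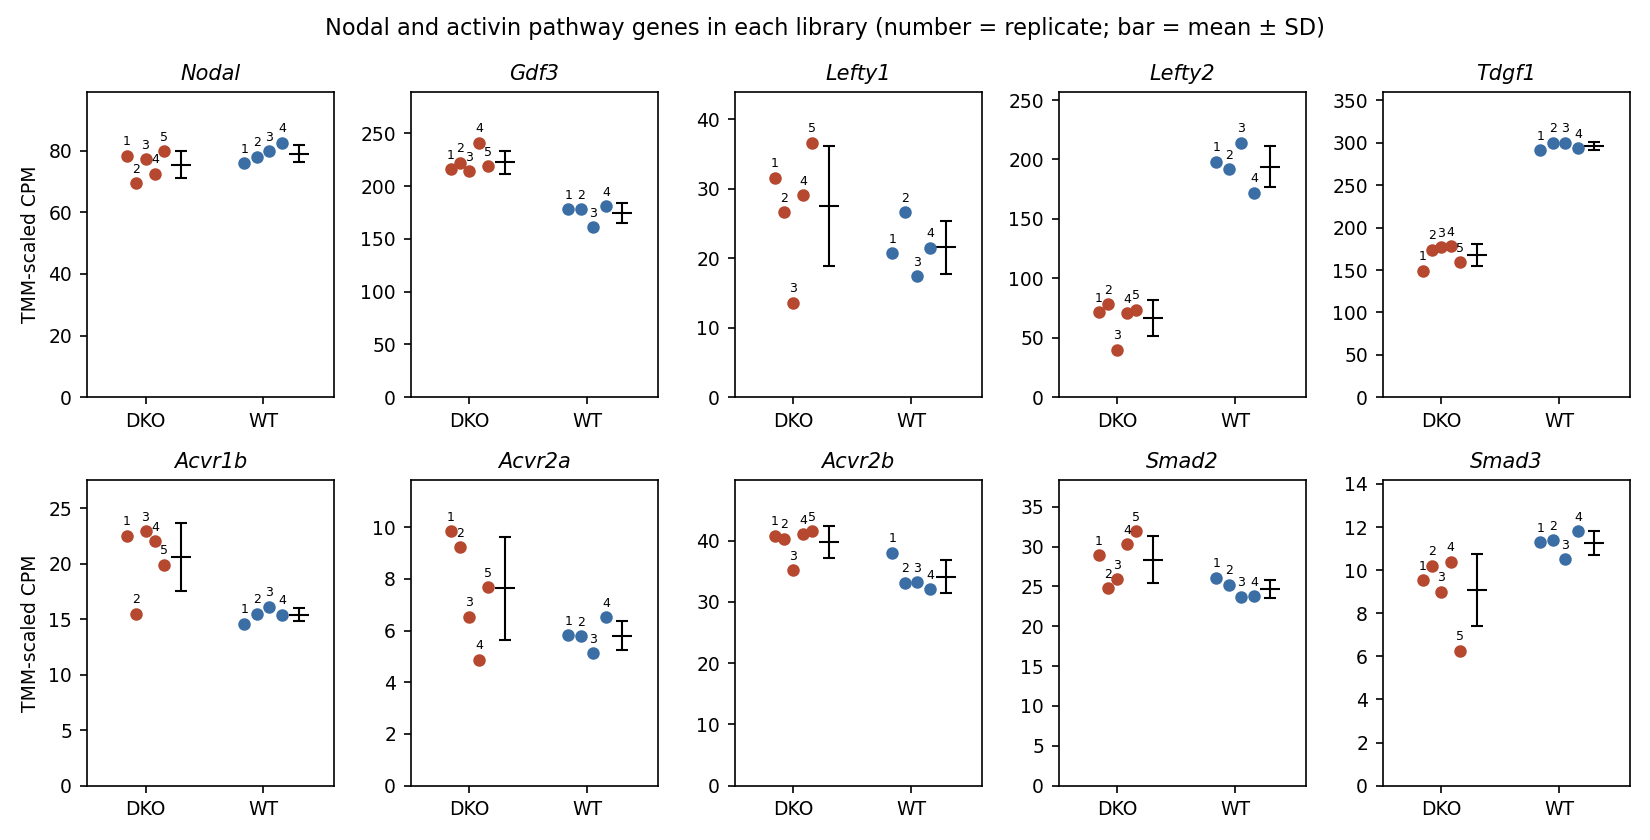
CPM scaled by TMM factors (y axis, from 0) of each gene in every library, with the 5 DKO libraries on the left and the 4 WT libraries on the right of each panel. Numbers are replicates and bars are means ± SD. The groups do not overlap for Gdf3, Lefty2, Tdgf1 and Smad3.

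The ligand Nodal (ENSMUSG00000037171, chromosome 10, 61417972 to 61425338, plus strand, mm10) was at nearly the same level in both groups. It had 525, 444, 472, 431 and 510 counts in DKO 1 to 5, against 509, 513, 544 and 583 in WT 1 to 4. That was 75.4 ± 4.37 CPM in DKO and 79.0 ± 2.81 CPM in WT (SD, n = 5 and 4), and the groups overlapped. The log2 fold change was -0.07 ± 0.06 (SE, edgeR adjusted p = 0.407), with a 95% confidence interval of -0.20 to 0.06. A fall to under 0.872 or a rise above 1.04 of the WT level lies outside that interval. Neighbouring genes within 5 Mb had a median of -0.03.

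Gdf3 (ENSMUSG00000030117, chromosome 6, 122605403 to 122610087, minus strand) encodes a ligand of the same receptors that is typical of pluripotent cells. It had 1448, 1418, 1305, 1435 and 1397 counts in DKO 1 to 5, against 1191, 1171, 1102 and 1281 in WT 1 to 4. All DKO libraries were above all WT libraries, at 222.2 ± 11.1 CPM in DKO and 174.6 ± 8.95 CPM in WT. The log2 fold change was 0.35 ± 0.05 (SE, edgeR adjusted p = 1.31e-06). The genes around it on chromosome 6 moved as well: the 87 tested genes that start within 5 Mb had a median log2 fold change of 0.33, with 52 called higher and 9 called lower. Gdf3 differed from that median by 0.01, and 49.4% of its neighbours lay above it. Close neighbours differed among themselves. Dppa3, 0.021 Mb away, had a log2 fold change of 4.71, while Mfap5 (-0.0996 Mb) had -2.27 and Rimklb (-0.158 Mb) had -0.91. These genes were singled out after their values were seen. Whether the rise of Gdf3 belongs to the region or to the gene was not tested. For the other 9 genes the median of the neighbours lay between -0.09 and 0.06.

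**Figure D2:**
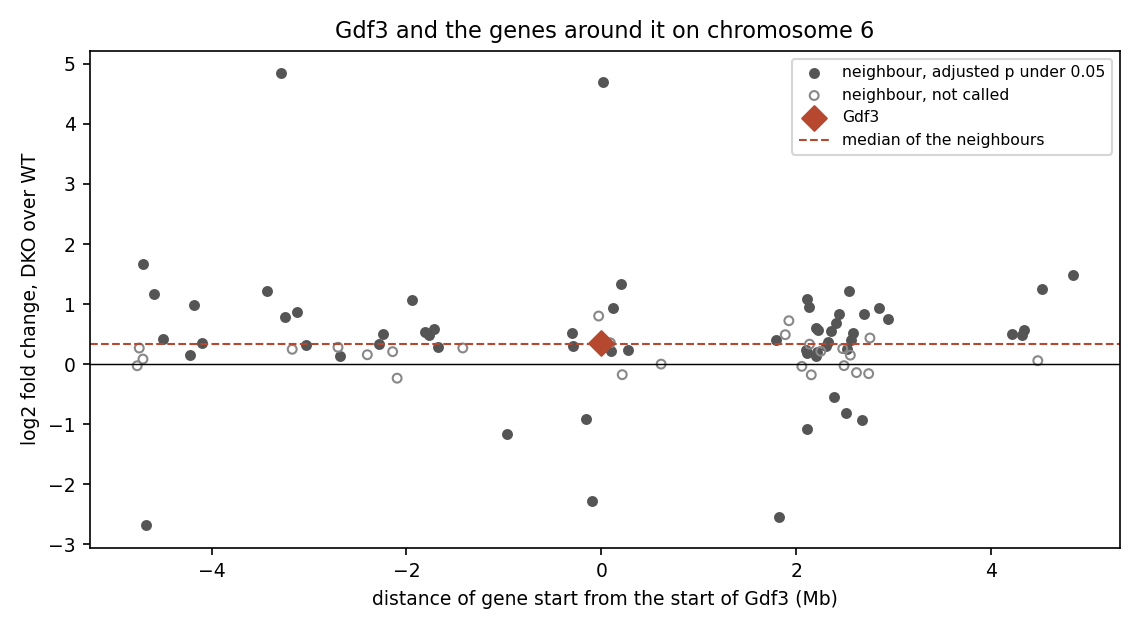
Log2 fold change of DKO over WT (y axis) against the distance of each gene's start from that of Gdf3 in Mb (x axis), for tested genes within 5 Mb on chromosome 6. Filled points passed an adjusted p of 0.05 and open points did not; Gdf3 (diamond, 0.35) lies on the dashed line, the neighbours' median of 0.33.

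The antagonist genes Lefty2 (ENSMUSG00000066652, 180893108 to 180899103) and Lefty1 (ENSMUSG00000038793, 180935022 to 180938400) lie 35.9 kb apart on the plus strand of chromosome 1. Lefty2 had 478, 502, 243, 421 and 470 counts in DKO 1 to 5, against 1331, 1266, 1460 and 1218 in WT 1 to 4. It was lower in all DKO libraries than in any WT library, at 66.8 ± 15.4 CPM in DKO and 194.3 ± 17.1 CPM in WT. The log2 fold change was -1.54 ± 0.17 (SE, edgeR adjusted p = 0.000122). Of the 10 genes Lefty2 had the largest change. It also had the largest chi-square per degree of freedom, 21.8 among DKO and 10.5 among WT libraries. Lefty1 followed with 16.7 among DKO and 4.46 among WT libraries. That measure grows with the number of counts, and Lefty2 had more counts than Lefty1. As a share of the mean, the SD was 23.1% in DKO and 8.82% in WT for Lefty2. For Lefty1 it was larger, at 31.4% in DKO and 17.6% in WT. DKO 3 was the lowest library for Lefty2, at 39.8 CPM against 70.8 to 78.4 CPM in the other DKO libraries. Without DKO 3 the log2 fold change was -1.40 (edgeR adjusted p = 9.8e-21).

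Lefty1 did not fall with its neighbour. It had 212, 170, 83, 173 and 234 counts in DKO 1 to 5, against 139, 175, 119 and 152 in WT 1 to 4. Again DKO 3 was lowest, at 13.6 CPM, below every WT library, whereas the other DKO libraries were at 26.6 to 36.6 CPM and the WT libraries at 17.4 to 26.6 CPM. The levels were 27.5 ± 8.62 CPM in DKO and 21.6 ± 3.79 CPM in WT, and the groups overlapped. Its log2 fold change was 0.355 ± 0.257 (SE, edgeR adjusted p = 0.297), with a 95% confidence interval of -0.23 to 0.94. Lefty1 was called higher without DKO 3, with 0.53 on the log2 scale (edgeR adjusted p = 0.000244), so its call rests on that library.

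Lefty2 and Lefty1 thus changed unequally within the same libraries. The ratio of Lefty2 to Lefty1 counts was 2.25, 2.95, 2.93, 2.43 and 2.01 in DKO 1 to 5, against 9.58, 7.23, 12.3 and 8.01 in WT 1 to 4. The share of Lefty2 in the reads of both genes was 71.2% ± 3.40 in DKO and 89.9% ± 2.01 in WT (SD, n = 5 and 4), and the groups did not overlap. In DKO 3, where both genes were low, the share was 74.5% (95% Wilson interval 69.5% to 79.0%), within the range of 66.8% to 74.7% of the other DKO libraries. The deviations of Lefty1 and Lefty2 from their group means had a Pearson r of 0.775 over the 9 libraries. The deviations of Acvr2b, which was also lowest in DKO 3 among the DKO libraries, had an r of 0.741 with Lefty2 and 0.632 with Lefty1. DKO 3 was the lowest DKO library for each of these genes, and r without DKO 3 was not computed. Other libraries did not all run in parallel: WT 3 was lowest of the WT libraries for Lefty1 (17.4 CPM) and highest for Lefty2 (214 CPM). DKO 2 was highest of the DKO libraries for Lefty2 (78.4 CPM), with only DKO 3 below it for Lefty1. The r values share libraries and scaling and are given as a description.

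**Figure D3:**
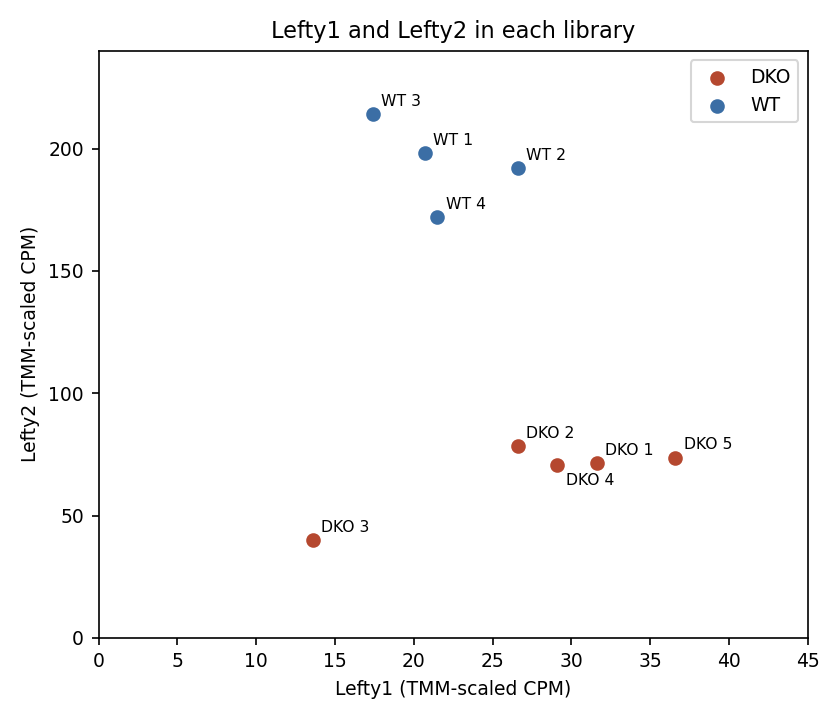
TMM-scaled CPM of Lefty2 (y axis) against Lefty1 (x axis), 1 point per library. The DKO libraries lie at 39.8 to 78.4 CPM of Lefty2 and the WT libraries at 172 to 214 CPM, while DKO 3 is lowest on both axes.

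The Lefty genes are close paralogues, so the ends of their transcripts were compared. Of the 50-base windows in the last 300 bases of annotated coding transcripts, none of the 251 of Lefty1 or the 251 of Lefty2 occurred in a transcript of another gene. The same held for Nodal, Acvr1b, Acvr2a, Acvr2b, Smad2 and Smad3. For Tdgf1 19.9% of windows occurred in Tdgf1-ps1, a processed pseudogene on chromosome 16 with 7 counts in the DKO libraries together and 10 in the WT libraries together. For Gdf3 16.7% of windows occurred in transcripts of many other genes. How reads with several matches were counted is not given in the sources used here, so Tdgf1 and Gdf3 counts could miss such reads.

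The co-receptor gene Tdgf1 (ENSMUSG00000032494, chromosome 9, 110939603 to 110946158, minus strand) had the smallest p-value of the 10. It had 1001, 1113, 1079, 1057 and 1014 counts in DKO 1 to 5, against 1951, 1972, 2046 and 2075 in WT 1 to 4. The groups were far apart relative to their spread, at 167.2 ± 12.6 CPM in DKO and 296.0 ± 4.40 CPM in WT. The log2 fold change was -0.825 ± 0.053 (SE, edgeR adjusted p = 4.22e-15), and the 113 tested neighbours within 5 Mb had a median of -0.03. Its promoter window is shown above, and any part of the GGGNGNGG matches in the fall was not tested.

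The type I receptor gene Acvr1b (ENSMUSG00000000532, chromosome 15, 101174067 to 101213684, plus strand) was higher in DKO. It had 151, 99, 140, 131 and 127 counts in DKO 1 to 5, against 98, 102, 110 and 109 in WT 1 to 4. The groups overlapped through DKO 2 alone, which at 15.5 CPM lay within the WT range of 14.6 to 16.1 CPM, while the other DKO libraries were at 19.9 to 22.9 CPM. The log2 fold change was 0.41 ± 0.12 (SE, edgeR adjusted p = 0.00508).

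Of the type II receptor genes Acvr2b was called and Acvr2a was not. Acvr2b (ENSMUSG00000061393, plus strand of chromosome 9, 119402118 to 119434995) encodes the receptor ACVR2B. It had 274, 258, 215, 244 and 265 counts in DKO 1 to 5, against 255, 218, 227 and 227 in WT 1 to 4. DKO 3, at 35.2 CPM, lay within the WT range of 32.1 to 38.0 CPM, and the other DKO libraries were at 40.3 to 41.5 CPM. The log2 fold change was 0.22 ± 0.09 (SE, edgeR adjusted p = 0.0314). That call was lost without any of DKO 1, 2, 4 or 5 or WT 2, 3 or 4 (edgeR adjusted p = 0.0529 to 0.102).

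Acvr2a (ENSMUSG00000052155, plus strand of chromosome 2, 48814109 to 48903269) encodes the receptor ACVR2A. It had 66, 59, 40, 29 and 49 counts in DKO 1 to 5, against 39, 38, 35 and 46 in WT 1 to 4. DKO 4, at 4.88 CPM, was below the WT range of 5.13 to 6.51 CPM, and the other DKO libraries, at 6.54 to 9.84 CPM, were above it. Its log2 fold change was 0.40 ± 0.20 (SE, edgeR adjusted p = 0.0905), and it was called higher without DKO 4 (0.52, edgeR adjusted p = 0.0237). Acvr2a overlaps Orc4 and Acvr2b overlaps Gm47320, both on the other strand. The kit is stranded, but the strand setting of the counting is not given in the sources used here.

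Neither signal carrier passed the test. Smad2 (ENSMUSG00000024563, plus strand of chromosome 18, 76241580 to 76310963) encodes a signal carrier that binds DNA only through its partners. It had 194, 159, 158, 180 and 204 counts in DKO 1 to 5, against 175, 166, 162 and 168 in WT 1 to 4. The groups overlapped, and the log2 fold change was 0.20 ± 0.10 (SE, edgeR adjusted p = 0.0939). Smad3 (ENSMUSG00000032402, minus strand of chromosome 9, 63646767 to 63757994) encodes a signal carrier that binds DNA itself. It had 64, 65, 55, 62 and 40 counts in DKO 1 to 5, against 76, 75, 72 and 83 in WT 1 to 4. All DKO libraries were below all WT libraries, with DKO 5 the lowest, yet Smad3 did not pass (log2 fold change -0.31 ± 0.15, edgeR adjusted p = 0.0952). Its 95% confidence interval was -0.63 to 0.002. The groups also did not overlap for Gdf3, Lefty2 and Tdgf1, so that 4 of 10 genes were free of overlap, beside 37.4% of all genes tested.

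Around these 10 genes, 41 further genes of the pathway were examined by role, of which 24 had enough reads to be tested. Of these 10 rose and 5 fell, or 41.7% and 20.8%, beside 23.8% and 24.0% of all genes tested, with a median log2 fold change of 0.03. A gene near the detection limit enters such a count only through the group where it is higher, as could be so for Tgfb2, Dand5 and Mixl1. The counts are therefore a description.

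**Figure D4:**
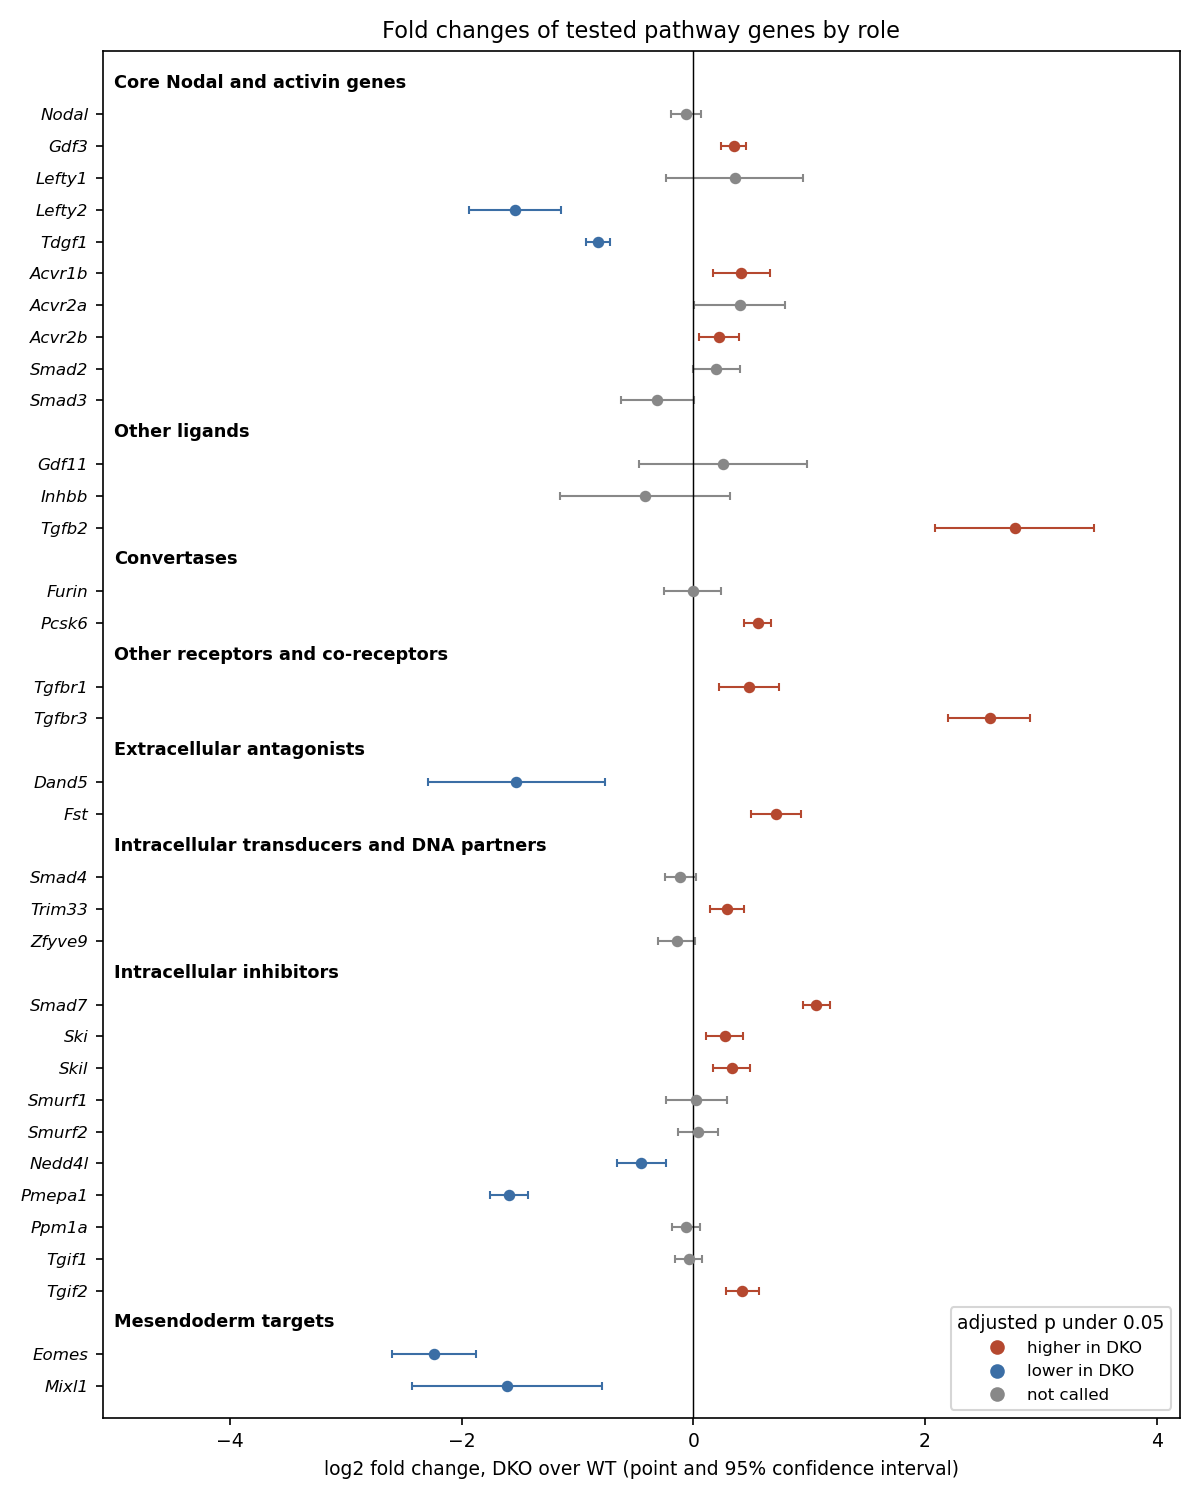
Log2 fold change of DKO over WT with its 95% confidence interval (x axis) for the 10 core genes and the 24 further tested genes, grouped by role. Lefty2 (-1.54), Pmepa1 (-1.59), Eomes (-2.24), Mixl1 (-1.61) and Dand5 (-1.53) lie on the lower side, and Smad7 (1.06), Tgfbr3 (2.56) and Tgfb2 (2.78) on the higher side.

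Of 5 listed genes that the pathway is known to activate in mesendoderm, 2 were tested, and both were lower in DKO. Eomes, a T-box factor, had 18, 30, 23, 15 and 20 counts in DKO 1 to 5, against 115, 111, 112 and 95 in WT 1 to 4. Its log2 fold change was -2.24 ± 0.18 (SE, edgeR adjusted p = 8.8e-13). Mixl1, a homeobox gene of mesendoderm, had 2 to 6 counts in DKO and 11 to 15 in WT, and it fell too (-1.61 ± 0.41, edgeR adjusted p = 0.00125). The groups overlapped for neither, beside 37.4% of all genes tested without overlap and 24.0% called lower, and with 2 genes, of which Mixl1 is near the detection limit, this is a description of each gene. Gsc, T and Fgf8 had too few reads to be tested. The 6 mesendoderm markers summed to 3.70 to 6.72 CPM in DKO and 19.5 to 24.2 CPM in WT, beside the lower Lefty2 and Tdgf1. Eomes carried 106 of their 157 counts in DKO and 433 of their 600 counts in WT, and Gsc, Mixl1 and T are in this list as well, so the sum largely repeats Eomes. Its part in the falls of Lefty2 and Tdgf1 was not tested.

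Intracellular inhibitors of the pathway went both ways. Smad7, which blocks the receptors and is induced by TGF-beta family signals, had 1197, 1149, 1149, 1095 and 1163 counts in DKO 1 to 5, against 612, 593, 630 and 533 in WT 1 to 4. It rose to 182.4 ± 3.83 CPM in DKO, against 87.3 ± 7.93 CPM in WT (log2 fold change 1.06 ± 0.06, edgeR adjusted p = 1.09e-16). Pmepa1, a TGF-beta target that holds SMAD2 and SMAD3 away from the receptors, had 184, 161, 186, 156 and 166 counts in DKO, against 614, 463, 588 and 555 in WT. It fell to 27.1 ± 2.06 CPM in DKO, against 81.7 ± 9.22 CPM in WT (log2 fold change -1.59 ± 0.08, edgeR adjusted p = 1.72e-17). Thus 2 negative feedback genes of the pathway moved in opposite directions. The groups overlapped for neither, but 4 of the 10 inhibitors and 37.4% of all genes tested were free of overlap.

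The corepressor gene Tgif2 rose (log2 fold change 0.42, edgeR adjusted p = 6e-06), and Nedd4l, a ubiquitin ligase for SMAD2 and SMAD3, fell (-0.45, edgeR adjusted p = 0.000612). Of the 10 inhibitors tested 4 rose and 2 fell, or 40.0% and 20.0%, beside 23.8% and 24.0% of all genes tested. The other 2 that rose were the corepressor genes Skil (0.33) and Ski (0.27), named after their values were seen. Tgif1 (-0.04 ± 0.06) and the phosphatase gene Ppm1a (-0.06 ± 0.06) did not pass.

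Outside the cell the genes also differed among themselves. Fst, whose product follistatin traps activins, had 187 to 298 counts in DKO and 130 to 166 in WT, and rose (0.71 ± 0.11 on the log2 scale, edgeR adjusted p = 9.9e-07). Dand5, a Nodal antagonist of the Cerberus family, had 4 to 6 counts in DKO and 10 to 25 in WT and fell (-1.53 ± 0.38, edgeR adjusted p = 0.001). Dand5 lies on chromosome 8, where 80 tested neighbours within 5 Mb had a median of -0.59. Pcsk6, a convertase that cleaves the Nodal precursor, rose to 163.9 ± 10.7 CPM in DKO, against 111.5 ± 3.83 CPM in WT (0.56 ± 0.06, edgeR adjusted p = 4.69e-10). Furin, another convertase of Nodal, did not pass, at 16.4 ± 1.58 CPM in DKO and 16.5 ± 1.45 CPM in WT.

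Among related ligands 1 of 3 tested genes rose, and among related receptors 2 of 2, beside 23.8% of all genes tested. Tgfb2, a TGF-beta ligand gene, had 62, 39, 29, 69 and 91 counts in DKO 1 to 5, against 9, 12, 6 and 9 in WT 1 to 4, and its log2 fold change was 2.78 ± 0.33 (SE, edgeR adjusted p = 2.37e-07). Tgfbr3, which encodes betaglycan, a co-receptor that binds TGF-beta2 and inhibin, had 147, 141, 111, 149 and 206 counts in DKO, against 25, 22, 33 and 30 in WT (2.56 ± 0.17, edgeR adjusted p = 2.62e-14). As with the Lefty genes, DKO 3 was the lowest DKO library for each. Tgfbr1, the type I receptor of TGF-beta, rose as well (0.48 ± 0.13, edgeR adjusted p = 0.0021). Tgfb1, Tgfb3, Tgfbr2 and Inhba had too few reads to be tested. Of these Tgfb1, singled out after its values were seen, lay the other way, with 1 to 4 counts in DKO and 6 to 10 in WT.

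Of the shared transducers, Smad4, the partner of SMAD2 and SMAD3, had 405 to 514 counts in DKO and 494 to 576 in WT and did not pass (-0.11 ± 0.07, edgeR adjusted p = 0.169). Zfyve9, which encodes the anchor protein SARA, did not pass either (-0.145 ± 0.080, edgeR adjusted p = 0.135). Trim33, a chromatin partner of SMAD2 and SMAD3, rose (0.29 ± 0.07, edgeR adjusted p = 0.0014). Foxh1 had too few reads to be tested.

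Genes whose deviations from the group means ran most like those of a member were taken from the 8078 genes with a mean of at least 10 CPM, over the 9 libraries. For Nodal they were Tpd52l2 (r = 0.983), Rhno1 (0.975) and Wdr45b (0.951). For Lefty1 they were Selenoi (0.969), Rnaseh2c (0.961) and Cldn3 (0.961), and for Lefty2 Nup210 (0.954), Zfp213 (0.948) and Dusp27 (0.945). For Tdgf1 they were Cog4 (0.961), Tln2 (0.957) and Zbtb8a (0.954), and for Gdf3 5031439G07Rik (0.959), Exosc10 (0.940) and B3gnt7 (0.922). With so many genes and so few libraries, values of this size are the top of a long list, and no gene of the pathway lists was among them.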

How the data were processed

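The authors deposited whole-number counts per gene, not normalized, for 9 libraries made from 600 ng of total RNA with the QuantSeq 3' forward kit, per the labels' protocols. The submitters' processing notes name mm10, cutadapt, STAR, featureCounts and DESeq2, without versions or roles. Of 52550 identifiers 52403 were matched to GENCODE M21, which gave symbols and positions. Promoter sequences are from RefSeq (GRCm38.p6). Genes were filtered with filterByExpr, scaled by TMM and tested by the robust quasi-likelihood test of edgeR 4.0.16 (R 4.3.3) across all genes, with genotype as the only term and Benjamini-Hochberg adjustment. CPM values use TMM-scaled library sizes, and a pseudocount of 1 CPM entered only the correlations of deviations. The fit was also run on simulated counts, which held no outlying library. That run therefore cannot speak for genes such as Lefty1 and Lefty2, where DKO 3 lay apart. A floor of 3 counts is 0.423 to 0.497 CPM, and the floor and the Wilson interval cover counting error only, while intervals of fold changes include the spread between libraries. Libraries of a group gave a chi-square per degree of freedom of 2.22 to 4.98 over 16 pairs, so none was counted as a duplicate. Named pathway genes were, per role, up to 4 called genes by adjusted p and up to 2 uncalled genes of at least 10 CPM. A pathway gene is not reported here. Members and lists were chosen with earlier results of these data known. Alternatives covered scaling, filters, DESeq2 1.42.0, libraries left out and a replicate block.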

Additional observations from a re-analysis of the deposited data

Results flagged for a closer look

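Of 56 groups of libraries examined for the 10 genes and the named pathway genes, 5 held a library set apart from the rest by more than Dixon's 95% limit, where chance alone sets apart about 1 in 20. Lefty2 was at 39.8 CPM in DKO 3, against 70.8 to 78.4 CPM in the other DKO libraries. Acvr2b was at 35.2 CPM in DKO 3, against 40.3 to 41.5 CPM in the others, and Trim33 at 76.7 CPM in DKO 3, against 65.9 to 68.3 CPM. Gdf3 was at 241 CPM in DKO 4, against 214 to 222 CPM in the other DKO libraries. Smad7 was at 75.5 CPM in WT 4, against 90.1 to 92.3 CPM in the other WT libraries, while the DKO libraries were at 178 to 188 CPM.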

How the results depend on the processing

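Each of the 10 fold changes was refitted under 18 alternatives, and none of the 180 values changed sign. Of these, 167 stayed on their side of the threshold, 10 lost a call (all Acvr2b) and 3 gained a call (Lefty1 without DKO 3, Acvr2a without DKO 4 and without DKO 4 and DKO 5 together). Over the alternatives the number of the 10 called higher ranged from 2 to 4, and the number called lower was 2 throughout. Among the further pathway genes 10 to 11 were called higher and 3 to 7 lower, against 5 lower in the report; the 3 came from a filter of 5 CPM in 4 libraries, which tests fewer low genes. Acvr2b was also lost with no filter on low counts (edgeR adjusted p = 0.057) and without DKO 4 and DKO 5 together (0.133). With the replicate block, a fit that also leaves out DKO 5, its edgeR adjusted p was 0.0593. Without DKO 5 and with no block it was 0.068, so the call was already lost there. The cause of these losses was not tested. Scaling shifted the median of all genes by under 0.1 on the log2 scale. Deviations of same-numbered libraries of the groups had correlations of -0.000266 to 0.0884, and those of other pairs -0.0764 to 0.0531. Each of the 4 WT libraries correlated best with the DKO library of its own number among DKO 1 to 4. With DKO 5 included this did not hold for WT 2 and WT 4. WT 2 had an r of 0.0531 with DKO 5 and -0.000266 with DKO 2, and WT 4 had 0.0489 with DKO 5 and 0.039 with DKO 4. Whether a shared number marks a shared batch was not tested. With the replicate number as a block and DKO 5 left out, 2 of the 10 genes were called higher and 2 lower, and 10 and 5 of the further genes, the same counts as without DKO 5 and with no block. Lefty2 then had an edgeR adjusted p of 0.0133. Acvr2a, at 29 to 66 counts in DKO and 35 to 46 in WT, and Smad3, at 40 to 65 in DKO and 72 to 83 in WT, were the members with the fewest counts; the part of depth in their missing calls was not tested.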
